A study of Mus musculus with 20 samples.

Results

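The genes described here encode enzymes that oxidise, conjugate and clear drugs and steroids: cytochrome P450 families 1 to 4 (Cyp), flavin-containing monooxygenases (Fmo), and glucuronosyl-, sulfo- and glutathione transferases (Ugt, Sult, Gst). They were chosen by gene symbol alone, with the probe set of highest mean over the 20 arrays taken for each symbol. The rule found 98 of the 18194 genes that the array platform names, and 41 of the 98 were bright enough to be tested among 12499 genes. To be tested, a gene had to read above 6.85, the median of the whole data set on the log2 scale, in 3 or more animals.

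Enzymes of this kind usually work in sequence. P450s and flavin monooxygenases place an oxygen atom on a fat-soluble molecule, and transferases then attach a sugar acid, a sulfate or glutathione, which makes the product easier to excrete. The liver is the main site, but breast tissue also carries such enzymes: CYP1B1 turns oestradiol into a catechol oestrogen, and several Cyp4 enzymes oxidise fatty acids. Tamoxifen is itself a substrate in humans, oxidised by CYP2D6, CYP3A4 and flavin monooxygenases and conjugated by SULT1A1 and UGT enzymes.

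All 20 animals were female FVB/N mice of line 1372-1 TgN(Nrl-tgfalpha)29EPS, heterozygous for a transgene in which the neu-related lipocalin promoter drives transforming growth factor alpha, a ligand of the epidermal growth factor receptor. No group without the transgene was measured. An implant under the skin released 5 mg of tamoxifen, a selective oestrogen receptor modulator, or held carrier only (placebo), from 8.5 weeks of age, with animals assigned alternately. A number 4 mammary gland free of tumor was taken at 20.5 to 21 weeks, 4 weeks after treatment ended by the sample labels, and the mouse was watched for mammary tumors up to 2 years of age. The groups were placebo with a later tumor (n = 7, animals 1, 2, 4, 7, 8, 9 and 10), placebo without (n = 3, animals 3, 5 and 6), tamoxifen with a later tumor (n = 3, animals 1, 2 and 10) and tamoxifen without (n = 7, animals 3 to 9).

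Values are robust multi-array average (RMA) intensities on the log2 scale, so that fold differences are 2 to the power of a log2 difference. The number of arrays limits the precision, and levels of different probe sets are not set against each other. Array medians lay between 6.82 and 6.89, and no array correlated below 0.977 with another. Placebo animals 7, 8 and 9, all with later tumors, stood apart on the first principal component (31.9% of the variance). Some differences between tamoxifen animals without tumors and placebo animals with tumors, and some marker correlations, are given with and without them. The outcome and treatment differences and the contrasts within treatments are not given without these animals together. All 10 of 10 epithelial, 10 of 10 fibroblast and 9 of 10 listed white adipocyte markers were matched and bright enough to be tested. The glands were whole tissue, in which fewer cells of a type and less RNA per cell cannot be told apart.

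Which enzymes were bright enough to be tested differed by family. All 4 Fmo genes and all 7 Gstm genes passed the brightness filter, as did 2 of 3 Gsta, both Gstp, 3 of 4 Gstt, 1 of 2 Gsto genes and Gstk1. Of the P450s, 2 of 3 Cyp1, 11 of 35 Cyp2 and 6 of 11 Cyp4 genes passed, and 2 of 13 sulfotransferases did. None of 5 Cyp3 and none of 8 Ugt genes with a symbol of its own passed. Passing the filter does not by itself show expression in the gland. Of 8 hepatocyte markers listed as genes that should be absent, 7 were matched and 4 passed. Among them Alb lay between 7.75 and 9.39 and Ttr between 7.76 and 7.95.

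The 35 members above the median on every array included Cyp2e1, an ethanol- and acetone-oxidising P450 of liver and fat, at 12.66 to 13.77. Of the 57 untested members, 55 exceeded the median on no array and 2 on 1 or 2 arrays. Among these dim genes, Cyp3a11, a main drug-oxidising P450 of mouse liver, lay between 5.58 and 6.10, and Cyp1a2, a hepatic P450, between 5.47 and 5.89. Sult1e1, the oestrogen sulfotransferase, lay between 4.19 and 4.55, and Ugt2b5, a steroid-conjugating enzyme, between 3.96 and 4.17. With no brightness filter, limma called 2 of these dim genes between tamoxifen animals without tumors and placebo animals with tumors, beside 3.14% of all 18194 genes. Cyp4f39, an omega-hydroxylase of the very long fatty acids of skin ceramides, lay between 6.27 and 6.74 in the former and between 5.99 and 6.27 in the latter (log2 difference 0.34, adjusted p = 0.0153). Cyp2d10 lay between 4.40 and 4.51 and between 4.49 and 4.69 (-0.16, adjusted p = 0.0402). Both were below the median on all 20 arrays.

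Glucuronidation was nevertheless represented by signal that cannot be given to 1 gene. On the platform, 3 probe sets belong to 8 Ugt1a genes at once, which share their last exons. Their means over 20 animals were 11.92, 12.42 and 10.82, above the median on every array. Tumor and no-tumor animals differed there by -0.02, -0.03 and -0.03 on the log2 scale, and tamoxifen animals without tumors differed from placebo animals with tumors by 0.01, -0.02 and -0.01.

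**Figure D1:**
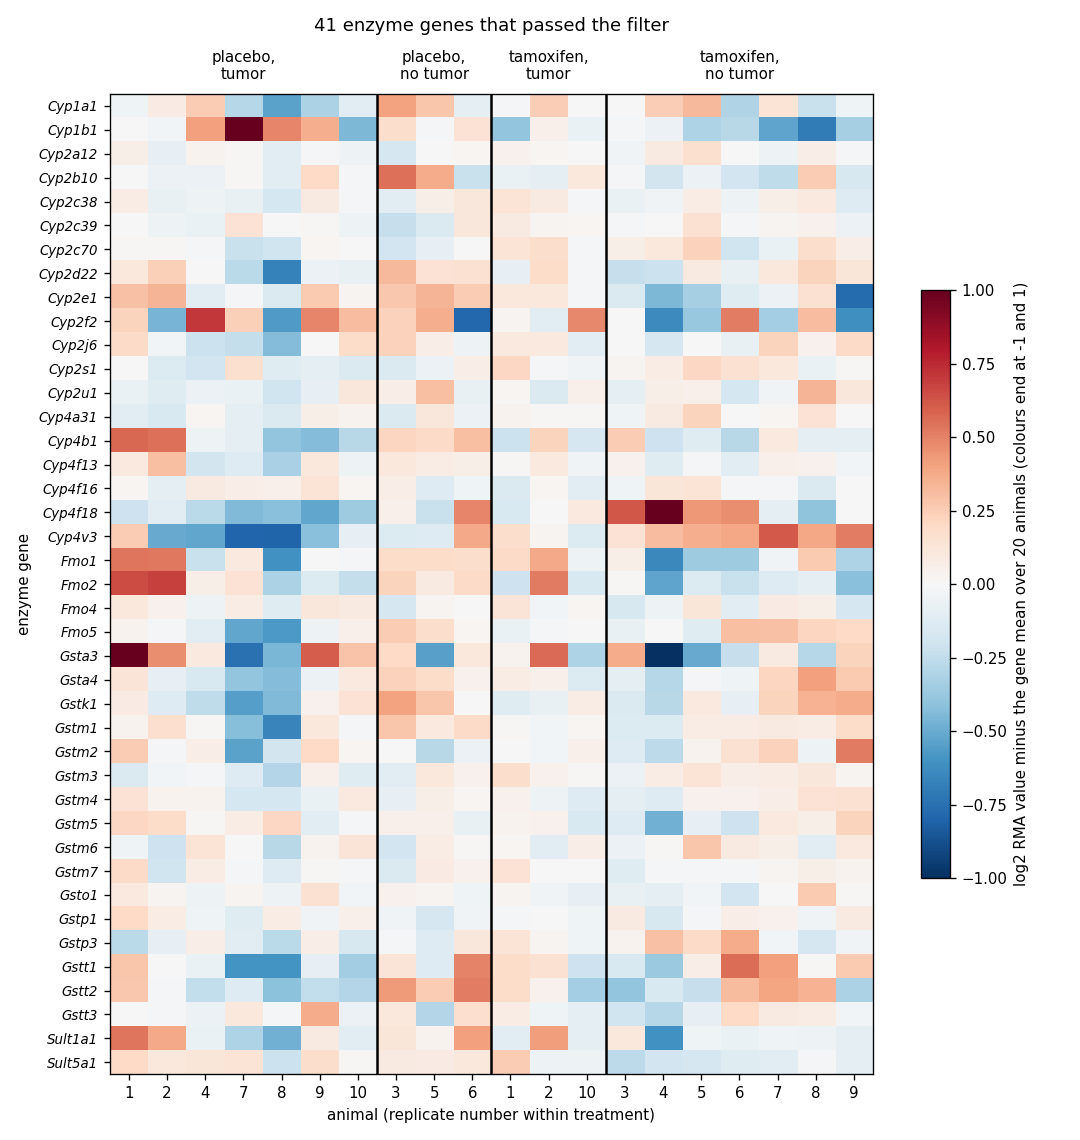
Log2 RMA values of the 41 tested enzyme genes (rows) in 20 animals (columns, by group), each as the difference from the gene's mean over all animals, with colours ending at -1 and 1. Cyp4v3 is lowest in placebo animals 7 and 8 (9.10 and 9.09), Cyp1b1 is highest in placebo animal 7 (11.02), and Cyp4f18 is highest in tamoxifen animal 4 (8.84).

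The widest contrast set the 7 tamoxifen animals without tumors against the 7 placebo animals with tumors, groups that differ in both treatment and outcome. Cyp4v3 and Cyp4f18, both of the fatty acid hydroxylase family 4, were higher in the tamoxifen animals without tumors, and no enzyme gene was lower after adjustment. limma called 2 of 41 members at an adjusted p under 0.05 (4.88%), beside 4.63% of all 12499 genes, of which 2.23% were higher and 2.4% lower. At an unadjusted p under 0.05 the members numbered 11 (26.8%), against 20.4% of all genes. Of these, 7 were higher (17.1%, against 11% of all genes), and 4 were lower (9.76%, against 9.34%). The median log2 difference was 0.048 over the members and 0.010 over all genes.

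Cyp4v3 (Entrez ID 102294, chromosome 8, 45305801 to 45333163, GRCm38) is the mouse counterpart of human CYP4V2, a fatty acid omega-hydroxylase that is mutated in Bietti crystalline dystrophy of the eye. It ranged from 9.09 through a median of 9.39 to 10.15 in placebo animals with tumors. Placebo animals without tumors had 9.75, 9.76 and 10.28. Tamoxifen animals with tumors had 10.07, 9.92 and 9.76, and those without ranged from 10.04 through 10.28 to 10.50. All 7 tamoxifen animals without tumors lay above the median of the placebo animals with tumors, but the groups overlapped through placebo animal 1, at 10.15. The means were 10.28 ± 0.15 and 9.48 ± 0.38 (SD, n = 7 each), a 1.74-fold difference (log2 0.80 ± 0.14 SE, limma adjusted p = 0.00327). A second probe set of the gene correlated with it at r = 0.991 over the 20 animals and differed by 0.85 (adjusted p = 0.00402).

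Cyp4f18 (Entrez ID 72054, chromosome 8, 71988482 to 72009668) encodes a P450 that inactivates leukotriene B4, an attractant of neutrophils. Its values ran from 7.30 through 7.47 to 7.70 in placebo animals with tumors. The placebo animals without tumors had 7.87, 7.59 and 8.31, and the tamoxifen animals with tumors had 7.66, 7.82 and 7.91. Tamoxifen animals without tumors were the most spread, from 7.42 through 8.25 to 8.84, with animal 8 lowest and animal 4 highest. Of these 7 animals, 6 exceeded the median of placebo animals with tumors, and the ranges overlapped. The means were 8.11 ± 0.48 and 7.49 ± 0.14 (SD, n = 7 each), a 1.54-fold difference (log2 0.62 ± 0.17 SE, limma adjusted p = 0.0396). The gene's other probe set was dim.

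Without placebo animals 7, 8 and 9 the difference of Cyp4v3 was 0.60 (adjusted p = 0.0502) and that of Cyp4f18 was 0.53 (adjusted p = 0.294), so neither passed. The Cyp4v3 call held when any 1 animal was left out (adjusted p from 0.000636 to 0.00901), whereas that of Cyp4f18 was lost without any of placebo animals 4, 7, 8 and 9 or tamoxifen animals 2, 3, 4, 5 and 6 (adjusted p up to 0.0774).

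The promoters of both genes and of Cyp1b1 are shown because these members carry the largest differences in either direction. Each run holds the 250 bases before an annotated start of transcription, 5′ to 3′ on the gene's strand, from RefSeq on GRCm38.p6, and all 3 genes lie on the minus strand (Cyp4v3 chr8:45333164-45333413, Cyp4f18 chr8:72009627-72009876, Cyp1b1 chr17:79715062-79715311). Capitals mark a dioxin response core (GCGTG, or CACGC where it lies on the other strand) or an antioxidant response core (TGACNNNGC). The first is the sequence that the dioxin receptor Ahr binds with Arnt, and the second lies in elements bound by Nfe2l2, the regulator of the oxidative stress response.
Cyp4v3: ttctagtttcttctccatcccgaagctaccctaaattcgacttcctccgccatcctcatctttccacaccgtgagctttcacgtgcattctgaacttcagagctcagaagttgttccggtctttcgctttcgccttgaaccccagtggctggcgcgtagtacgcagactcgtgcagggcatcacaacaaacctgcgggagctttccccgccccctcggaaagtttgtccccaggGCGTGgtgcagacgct
Cyp4f18: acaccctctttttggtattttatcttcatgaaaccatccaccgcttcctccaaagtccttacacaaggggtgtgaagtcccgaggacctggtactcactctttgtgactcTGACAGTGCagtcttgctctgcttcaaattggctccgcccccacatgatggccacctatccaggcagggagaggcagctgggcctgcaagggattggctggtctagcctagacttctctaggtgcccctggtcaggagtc
Cyp1b1: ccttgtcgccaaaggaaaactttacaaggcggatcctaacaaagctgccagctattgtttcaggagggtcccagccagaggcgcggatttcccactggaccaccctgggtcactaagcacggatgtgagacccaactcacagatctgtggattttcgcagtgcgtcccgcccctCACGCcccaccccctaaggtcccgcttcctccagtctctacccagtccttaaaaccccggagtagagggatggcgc

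The core begins 16 bases before the start in Cyp4v3 and 76 bases before it in Cyp1b1, and the antioxidant core begins 140 bases before it in Cyp4f18. Promoters were available for 82 of the 98 members, some with several starts, and each motif was searched on both strands. GCGTG was in 20 of 99 member promoters (20.2%) and in 28.2% of all 32851 promoters of the same length. TGACNNNGC was in 5 member promoters (5.05%) and in 10.2% of all. The palindromic oestrogen response element, with 3 free bases between its arms, was in 0 of the 99, and in 0.0639% of all promoters. The matches describe letters in these windows and not sites of binding.

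**Figure D2:**
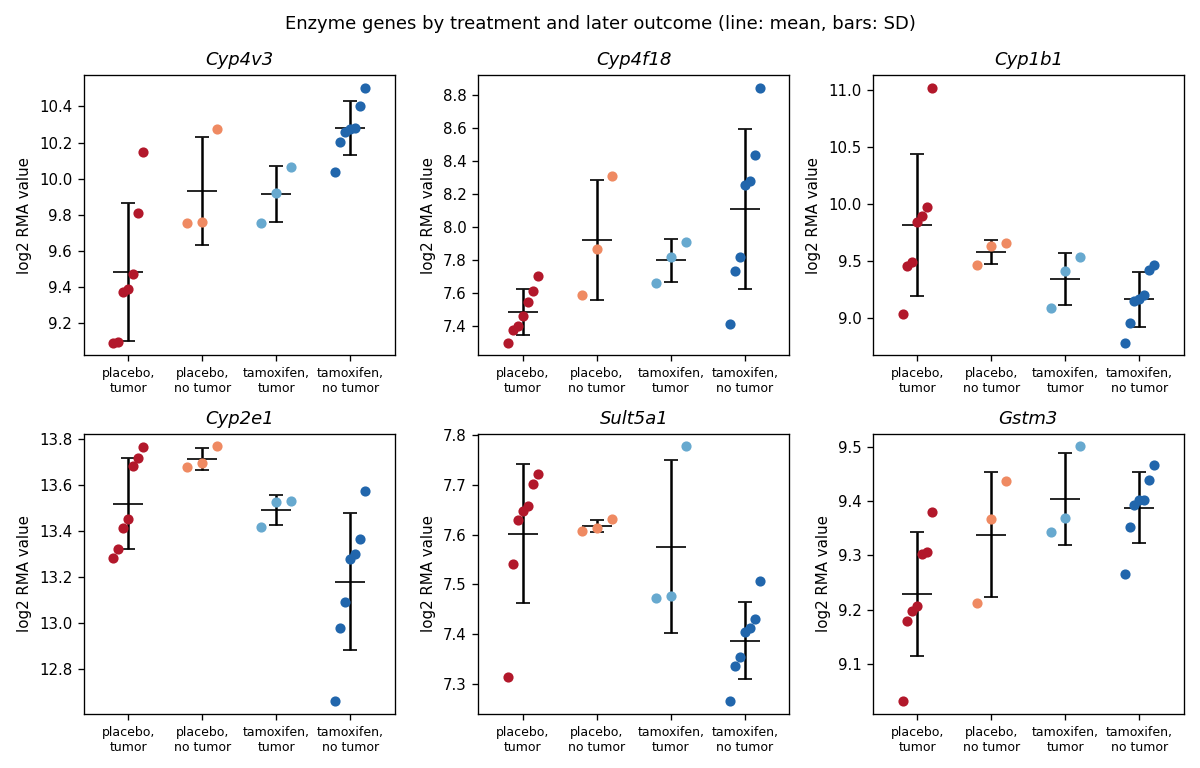
Log2 RMA values (vertical axes, which do not start at 0) of 6 enzyme genes in each animal, by treatment and later outcome, with the mean and SD of each group (n = 7, 3, 3 and 7). Cyp4v3 is highest in tamoxifen animals without tumors (10.04 to 10.50) and Cyp1b1 and Sult5a1 have their lowest means there, with overlap between tamoxifen animals without tumors and placebo animals with tumors for each gene.

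Below the adjusted threshold, Cyp1b1 had the largest difference in the other direction. Cyp1b1 (Entrez ID 13078, chromosome 17, 79706940 to 79715061) hydroxylates oestradiol and polycyclic hydrocarbons, and its transcription responds to Ahr. It ran from 9.03 through 9.84 to 11.02 in placebo animals with tumors and from 8.78 through 9.17 to 9.46 in tamoxifen animals without. The placebo animals without tumors had 9.65, 9.46 and 9.63, and the tamoxifen animals with tumors had 9.08, 9.53 and 9.41. Placebo animal 7 was the highest of all 20, and placebo animal 10 lay within the tamoxifen range. The log2 difference was -0.65 ± 0.21 SE (1.57-fold, limma adjusted p = 0.0752), and 0 of 7 tamoxifen animals without tumors exceeded the median of placebo animals with tumors.

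The difference of Cyp1b1 was -0.30 without placebo animals 7, 8 and 9 (adjusted p = 0.411) and passed the threshold without placebo animal 10 (-0.78, adjusted p = 0.0241). A second probe set correlated with the first at r = 0.967 and differed by -0.65 (adjusted p = 0.0879), while another gave 0.01 and correlated at r = -0.208.

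Cyp2e1 (Entrez ID 13106, chromosome 7, 140763819 to 140774990) had values from 13.28 through 13.45 to 13.76 in placebo animals with tumors. Tamoxifen animals without tumors ran from 12.66 through 13.28 to 13.57, with animal 9 the lowest. Placebo animals without tumors had 13.69, 13.77 and 13.68, and tamoxifen animals with tumors had 13.53, 13.53 and 13.42. The 3 placebo animals without tumors lay above all 7 tamoxifen animals without tumors, but no member was called in that contrast. Cyp2e1 had the smallest limma adjusted p of the members there, at 0.295. The share of all genes that separate these groups is not given here. Between the groups of 7 the log2 difference was -0.34 ± 0.11 SE (1.27-fold, limma adjusted p = 0.0853), with 1 of 7 above the placebo median. It passed without tamoxifen animal 8 (-0.41, adjusted p = 0.0272), while leaving out each animal in turn gave adjusted p up to 0.167.

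Sult5a1 (Entrez ID 57429, chromosome 8, 123142843 to 123158914), a member of the cytosolic sulfotransferase family, ran from 7.31 through 7.65 to 7.72 in placebo animals with tumors. It ran from 7.26 through 7.40 to 7.51 in tamoxifen animals without. Placebo animal 8, at 7.31, lay within the tamoxifen range, and the other placebo animals with tumors lay above it. Placebo animals without tumors had 7.61, 7.61 and 7.63, and tamoxifen animals with tumors had 7.78, 7.48 and 7.47. The log2 difference was small, at -0.22 ± 0.06 SE (1.16-fold, limma adjusted p = 0.056), and it passed without placebo animal 8 (adjusted p = 0.0108), tamoxifen animal 1 (0.0436) or tamoxifen animal 8 (0.0361). It also passed with array weights (-0.27, adjusted p = 0.0136) and with the white adipocyte marker mean as a covariate (-0.27, adjusted p = 0.0348). It did not pass with the epithelial (limma adjusted p = 0.703), T lymphocyte (0.274) or skeletal muscle marker mean (0.192). Nor did it pass without placebo animals 7, 8 and 9 (0.0644), and leaving out each animal in turn gave adjusted p up to 0.113.

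The flavin monooxygenases, which oxidise nitrogen and sulfur atoms of drugs, differed in sign, and none was called. Fmo1 (Entrez ID 14261, chromosome 1, 162829561 to 162866610) ran from 10.42 through 11.03 to 11.56 in placebo animals with tumors and from 10.39 through 10.72 to 11.29 in tamoxifen animals without. Its 3 placebo animals without tumors all had 11.21, and tamoxifen animals with tumors had 11.22, 11.40 and 10.97. The groups of 7 covered nearly the same range, and the log2 difference was -0.24 ± 0.16 SE (limma adjusted p = 0.405). Fmo2, its neighbour on chromosome 1 and the main form of lung in many mammals, had -0.34 ± 0.15 SE (adjusted p = 0.221), and 3 further bright probe sets of it had -0.53, -0.46 and -0.47 (adjusted p from 0.236 to 0.252). Fmo5 (Entrez ID 14263, chromosome 3, 97609938 to 97655287), which can act as a Baeyer-Villiger oxidase, had the opposite sign, at 0.29 ± 0.10 SE (adjusted p = 0.112).

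Glutathione transferases gave small differences. Gsta4 (Entrez ID 14860, chromosome 9, 78191966 to 78209349) conjugates 4-hydroxynonenal, a product of lipid peroxidation. It ran from 10.20 through 10.55 to 10.76 in placebo animals with tumors and from 10.34 through 10.61 to 11.04 in tamoxifen animals without. Placebo animals without tumors had 10.86, 10.81 and 10.67, and tamoxifen animals with tumors had 10.71, 10.68 and 10.49. The groups of 7 overlapped over most of their range, with a log2 difference of 0.19 ± 0.10 SE (limma adjusted p = 0.316).

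Gstm3 (Entrez ID 14864, chromosome 3, 107963696 to 107969174), a mu class transferase, differed by 0.16 ± 0.05 SE (1.12-fold, limma adjusted p = 0.096), with 7 of 7 tamoxifen animals without tumors above the placebo median. Its probe set is of a type that can match several transcripts, as are those of Cyp4v3 and Fmo5 and of 8 members in all, so closely related genes may add to it. The 7 Gstm genes lay between -0.16 and 0.16, and Gstm2 among them had 0.10 ± 0.12 SE (adjusted p = 0.676). The 3 Gstt genes lay between -0.08 and 0.31, and Gstt1, a theta class enzyme that acts on halogenated methanes, had 0.31 ± 0.15 SE (adjusted p = 0.265). Gsta3 varied the most within groups, from 6.93 to 8.71 in placebo animals with tumors, and had -0.37 ± 0.26 SE (adjusted p = 0.429). Gstp3 had 0.20 ± 0.08 SE (adjusted p = 0.163) and Gsto1 had -0.04 ± 0.06 SE (adjusted p = 0.729). None of these classes held a called member.

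**Figure D3:**
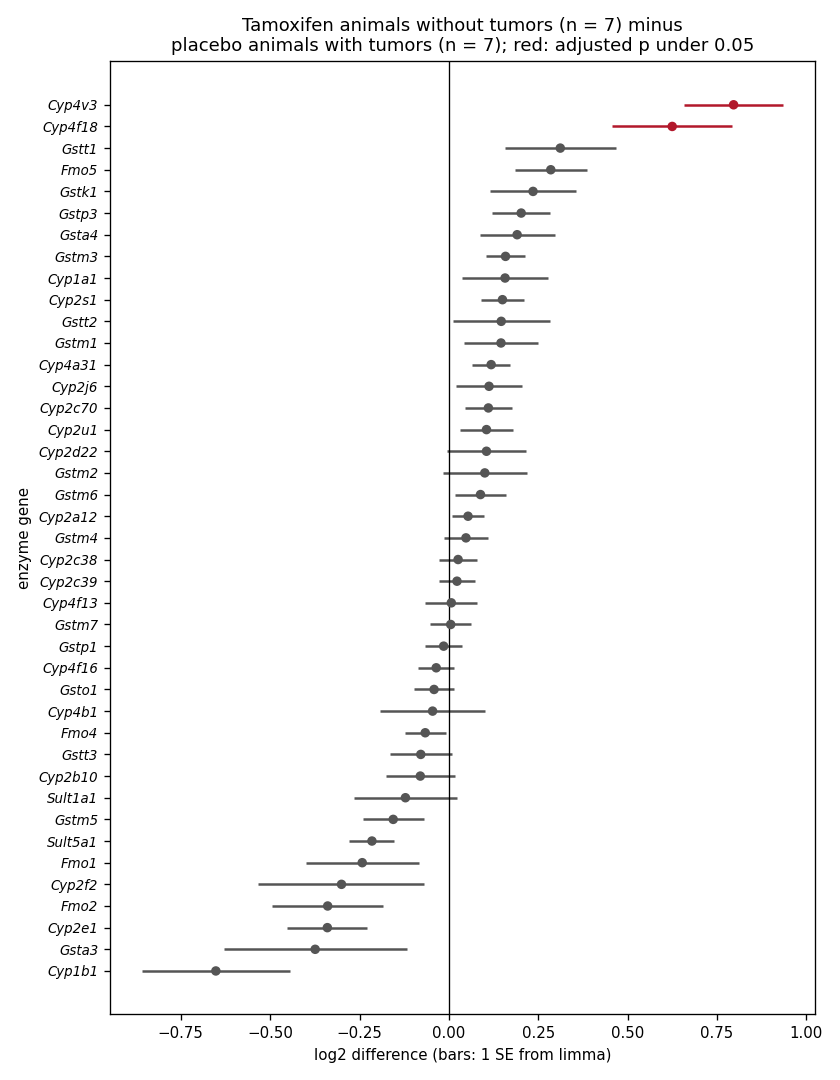
Log2 difference of each of the 41 tested enzyme genes between tamoxifen animals without tumors and placebo animals with tumors (n = 7 each), with bars of 1 SE from limma. Only Cyp4v3 (0.80) and Cyp4f18 (0.62), in red, have an adjusted p under 0.05, and Cyp1b1 (-0.65) is lowest.

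The outcome comparison asked how glands of the 10 animals with later tumors differed from those of the 10 without. No enzyme gene passed the adjusted threshold, which 0.232% of all genes did. The members at an unadjusted p under 0.05 numbered 6 of 41 (14.6%), beside 16.5% of all genes. The 1 with a higher level in tumor animals (2.44%, beside 6.79% of all genes) was Sult5a1, and the 5 with a lower level (12.2%, beside 9.69%) were Cyp4v3, Cyp4f18, Fmo5, Gstk1 and Gsta4. Median log2 differences were -0.02 over the members and -0.01 over all genes. The tumor animals were 7 placebo and 3 tamoxifen animals, the others the reverse, so this comparison carries treatment with it.

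Cyp4v3 came closest, at -0.56 ± 0.14 SE (1.48-fold, limma adjusted p = 0.0712), with 0 of 10 tumor animals above the no-tumor median. It passed without placebo animal 3 (adjusted p = 0.0478), tamoxifen animal 1 (0.0338) or tamoxifen animal 2 (0.0495). When each other animal was left out it did not pass, with adjusted p up to 0.124. Cyp4f18 had -0.47 ± 0.14 SE (adjusted p = 0.118), also with 0 of 10 above. Fmo5 ran from 7.46 to 8.08 in placebo animals with tumors and was at 8.28, 8.20 and 8.05 in those without. Its outcome difference was -0.25 ± 0.08 SE (adjusted p = 0.145), again with 0 of 10 above. Gstk1 (Entrez ID 76263, chromosome 6, 42245935 to 42250441), a mitochondrial and peroxisomal transferase, had -0.24 ± 0.10 SE (adjusted p = 0.227), and Gsta4 had -0.18 ± 0.09 SE (adjusted p = 0.302). Cyp1b1 had 0.38 ± 0.19 SE (adjusted p = 0.312) and Fmo1 had 0.17 ± 0.14 SE (adjusted p = 0.573).

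The treatment comparison set all 10 tamoxifen animals against all 10 placebo animals. No enzyme gene passed the adjusted threshold, which 0.008% of all genes, a single gene, did. At an unadjusted p under 0.05 there were 11 members (26.8%), beside 13.9% of all genes. With tamoxifen 7 were higher (17.1%, beside 6.95% of all genes): Cyp4v3, Cyp4f18, Cyp2s1, Cyp2c70, Cyp4a31, Gstm3 and Gstp3. The 4 lower ones (9.76%, beside 6.96%) were Cyp1b1, Cyp2e1, Fmo2 and Sult5a1. Median log2 differences were 0.021 over the members and 0.001 over all genes. The tamoxifen animals were 7 without and 3 with later tumors, the placebo animals the reverse, so this comparison carries outcome with it.

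Cyp4v3 differed by 0.55 ± 0.14 SE (1.47-fold, limma adjusted p = 0.118), with each of 10 tamoxifen animals higher than the placebo median. It passed without placebo animal 6 (adjusted p = 0.0422). When each other animal was left out it did not pass, with adjusted p up to 0.197. Cyp1b1 differed by -0.53 ± 0.17 SE (1.44-fold, adjusted p = 0.182) and Cyp2e1 by -0.30 ± 0.10 SE (1.24-fold, adjusted p = 0.192), each with 0 of 10 above. Gstm3 and Cyp2s1, a P450 of epithelia, had small differences of 0.13 ± 0.05 SE each (adjusted p = 0.201 and 0.222), with 10 of 10 tamoxifen animals above in both. Gsta4 had 0.09 (adjusted p = 0.706) and Fmo1 had -0.17 (adjusted p = 0.602). Leaving out any 1 animal left the Cyp1b1 difference between -0.61 and -0.39, and it did not pass in any of these 20 fits.

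Within treatments the contrasts rested on 3 animals on 1 side. Among placebo animals, tumor against none, 0 members and 0.008% of all genes passed, with 7 members at an unadjusted p under 0.05 (17.1%, beside 14.1% of all genes). These were Gstt2, Fmo5, Gstk1, Cyp4v3, Cyp1a1, Cyp2d22 and Gstm1. Gstt2 (Entrez ID 14872, chromosome 10, 75831842 to 75837419), a theta class transferase, was at 10.25, 10.08 and 10.34 without tumors and from 9.42 through 9.58 to 10.09 with them. Of the 3 animals without tumors, 2 lay above all 7 with tumors and the other just below the highest of them, and the log2 difference was -0.55 ± 0.18 SE (limma adjusted p = 0.191). Cyp2d22, the counterpart of human CYP2D6, had -0.31 (adjusted p = 0.341), and Cyp1a1, another Ahr target, had -0.33 (adjusted p = 0.348).

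Among tamoxifen animals, tumor against none, 0 members and 0.008% of all genes passed. Members at an unadjusted p under 0.05 were Cyp2e1 (0.31, limma adjusted p = 1) and Sult5a1 (0.19, adjusted p = 1), 4.88% of the 41 beside 2.1% of all genes. Without tamoxifen animal 1 the difference of Sult5a1 was 0.09. For tamoxifen against placebo in animals without tumors, 0 members and 0.064% of all genes passed, and 4 members (9.76%, beside 5.26%) had an unadjusted p under 0.05. The lowest of these was Cyp2e1, at -0.54 ± 0.14 SE (1.45-fold, adjusted p = 0.295). Gstt2 had -0.40 (adjusted p = 0.876), Sult5a1 -0.23 (adjusted p = 0.597) and Cyp2b10, a target of the receptor CAR in liver, -0.32 (adjusted p = 0.723).

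In animals with tumors, tamoxifen against placebo gave 0 called members and 0% of all genes, and an unadjusted p under 0.05 for Cyp4v3 and Gstm3 (4.88% of members, beside 7% of all genes). Cyp4v3 differed there by 0.43 ± 0.18 SE and Gstm3 by 0.17 (limma adjusted p = 0.703 for both). The interaction, which tests whether the outcome difference differed between treatments, called 0 members and 0% of all genes. An unadjusted p under 0.05 was reached by Cyp2e1 alone (2.44% of members, beside 4.52% of all genes), with an interaction of 0.51 ± 0.20 SE (adjusted p = 0.938). For Cyp4v3 the interaction was 0.08 ± 0.25 SE (adjusted p = 0.973) and for Cyp4f18 0.12 ± 0.31 SE (adjusted p = 0.966), and their outcome differences were -0.45 and -0.43 in placebo animals and -0.37 and -0.31 in tamoxifen animals. Without placebo animal 6 the difference of Cyp4v3 in placebo animals was -0.27.

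Both called genes moved with markers of other cell types. The mean log2 level of the 4 matched of 5 listed T lymphocyte markers ran from 9.39 to 9.93 in placebo animals with tumors and from 9.68 to 10.79 in tamoxifen animals without. The groups of 3, at 9.97 to 10.31 with placebo and 10.10 to 10.13 with tamoxifen, lay above every placebo animal with a tumor. They lay inside the range of the tamoxifen animals without. That of the 3 matched of 4 B lymphocyte markers ran from 9.54 to 10.22 and from 9.79 to 11.24. Cyp4f18 followed the T lymphocyte mean over the 20 animals (r = 0.913, rho = 0.936, permutation adjusted p = 0.0002 and 0.0004 over 40 relations). Its r was 0.928 without the 2 animals farthest from the median, 0.861 within groups and 0.900 without placebo animals 7, 8 and 9. With the B lymphocyte mean its r was 0.872 and rho 0.790 (permutation adjusted p = 0.0002 and 0.000933), 0.843 both without the 2 farthest animals and within groups.

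With the T lymphocyte mean as a covariate, the difference of Cyp4f18 between the groups of 7 was -0.02 (limma adjusted p = 0.963), while that of Cyp4v3 was 0.73 (adjusted p = 0.0692). Cyp4v3 had r = 0.615 and rho = 0.520 with the T lymphocyte mean (permutation adjusted p = 0.0206 and 0.0914), 0.589 without the 2 farthest animals and 0.104 within groups. All matched markers of these lists were above the brightness filter.

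Cyp4v3 followed the mean of the 9 white adipocyte markers, which ran from 12.37 to 12.95 in placebo animals with tumors and from 12.58 to 13.11 in tamoxifen animals without. It was 12.81 to 13.12 in placebo animals without tumors and 12.76 to 12.95 in tamoxifen animals with them. Over the 20 animals r was 0.753 and rho 0.773 (permutation adjusted p = 0.00128 and 0.000933). Its r was 0.666 without the 2 farthest animals, 0.780 within groups and 0.708 without placebo animals 7, 8 and 9. With that mean as a covariate the difference of Cyp4v3 was 0.58 (limma adjusted p = 0.00684) and that of Cyp4f18 was 0.76 (adjusted p = 0.0274).

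The mean of the 10 epithelial markers ran the other way, from 9.58 to 10.72 in placebo animals with tumors and from 8.75 to 9.69 in tamoxifen animals without. It was 8.61 to 9.46 in placebo animals without tumors and 9.25 to 9.62 in tamoxifen animals with them. Cyp4v3 had r = -0.746 and rho = -0.668 with it (permutation adjusted p = 0.00128 and 0.0133), with r of -0.538 without the 2 farthest animals, -0.446 within groups and -0.444 without placebo animals 7, 8 and 9. For Cyp4f18 the pair was -0.571 and -0.582 (permutation adjusted p = 0.0369 and 0.0507), with -0.165 within groups. With the epithelial mean as a covariate both genes had a difference of 0.49 (limma adjusted p = 0.959 for each), and 6 of 12499 genes were called. The 10 skeletal muscle markers averaged 7.07 and 9.38 in the 2 groups, and with their mean as a covariate Cyp4v3 had 0.79 (adjusted p = 0.0252) and Cyp4f18 0.96 (adjusted p = 0.013).

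**Figure D4:**
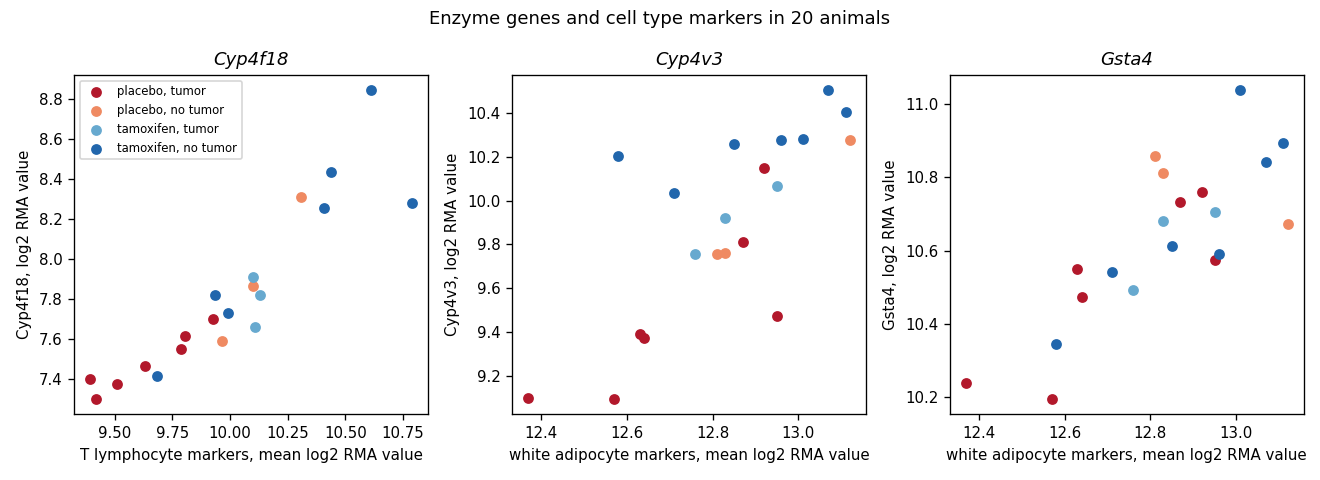
Log2 RMA values of Cyp4f18, Cyp4v3 and Gsta4 (vertical axes) against the mean log2 level of the T lymphocyte or white adipocyte markers (horizontal axes), 1 point per animal, coloured by group (20 animals). The correlations are 0.913, 0.753 and 0.797.

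Gsta4 also followed the adipocyte mean (r = 0.797, rho = 0.731, permutation adjusted p = 0.000533 and 0.0044), with r of 0.795 without the 2 farthest animals, 0.745 within groups and 0.718 without placebo animals 7, 8 and 9. Cyp1b1 had the opposite sign with it (r = -0.695, rho = -0.543, adjusted p = 0.00393 and 0.0771), and r = -0.516 without those 3 animals. Its relation to the epithelial mean (r = 0.625, rho = 0.429, permutation adjusted p = 0.0186 and 0.163) was 0.46 within groups. It was 0.284 without the 2 farthest animals and 0.118 without placebo animals 7, 8 and 9, so it rests on those samples. With the fibroblast mean Cyp1b1 had r = 0.572 and rho = 0.433 (permutation adjusted p = 0.0369 and 0.163). That r was 0.553 without the 2 farthest animals, 0.433 within groups and 0.325 without placebo animals 7, 8 and 9. With the adipocyte mean as a covariate the difference of Cyp1b1 between the groups of 7 was -0.38 (limma adjusted p = 0.289), and with the epithelial mean it was -0.18 (adjusted p = 0.965). No relation of Fmo1 with the 8 marker lists tested passed adjustment, and the smallest permutation adjusted p for r was 0.193. The hepatocyte list was left out of these tests, and Fmo1 had r = 0.666 with its mean.

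The members most like each of the 3 marker enzymes of the family were ranked by Pearson's r over the 20 animals, as a description. Gsta4 was most like Gstk1 (r = 0.915), then Cyp2j6, an arachidonic acid epoxygenase (0.865), and Fmo5 (0.812), and these were 0.890, 0.850 and 0.755 within groups. Fmo1 was most like Fmo2 (0.831), Sult1a1, a phenol sulfotransferase (0.807), and Cyp4f13 (0.792), with 0.806, 0.785 and 0.836 within groups. Cyp1b1 had no close companion among the members, the highest being Cyp4f16 (0.425). Each correlation is over the same 20 animals, which also differed in the mean levels of the marker lists, and the cause of the correlations was not tested.

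The spread within groups was wide for some members that gave no call. Cyp2f2, a P450 best known from lung, ran from 9.16 to 10.43 in placebo animals with tumors and from 9.08 to 10.23 in tamoxifen animals without, and the log2 difference was -0.30 ± 0.23 SE (limma adjusted p = 0.493). Cyp4b1, which activates some protoxins, differed by -0.05 (adjusted p = 0.898). Sult1a1 had -0.12 ± 0.14 SE (adjusted p = 0.683).

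Regulators, cofactor suppliers and other detoxifying enzymes around these families were counted as a list of 71 genes, of which 65 were matched and 51 tested. For the outcome limma called 0, beside 0.232% of all genes, and at an unadjusted p under 0.05 there were 5 higher and 6 lower with tumors (21.6%, beside 16.5% of all genes). For treatment 1 was called higher and 0 lower (1.96%, beside 0.008%), with 2 and 5 unadjusted (13.7%, beside 13.9%). Between the groups of 7, 2 were higher and 1 lower (5.88%, beside 4.63%), with 5 and 7 unadjusted (23.5%, beside 20.4%). The median log2 difference there was 0.012, beside 0.010 over all genes. The higher ones were Akr1cl, an aldo-keto reductase family gene (3.66, limma adjusted p = 2.17e-06), and Abcc4, an exporter of conjugates (0.21, adjusted p = 0.0425). The lower one was Cbr3, a carbonyl reductase (-0.31, adjusted p = 0.0212). Akr1cl was also the 1 called for treatment, where it was the only gene called among all 12499. Between the groups of 7 it had the smallest adjusted p of all genes. The list was chosen with earlier results of these data known, so the shares that include Akr1cl are not a result about the list.

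Ahr had a difference of -0.27 between the groups of 7 (limma adjusted p = 0.378). Nfe2l2 had 0.03 (adjusted p = 0.759), and the microsomal glutathione transferase Mgst1 had -0.06 (adjusted p = 0.477). Nqo1, a quinone reductase under Nfe2l2 control, lay between 6.20 and 6.66 and was not tested. Por, the electron donor of microsomal P450s, was not matched and is not analysed here.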

How the data were processed

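Per the submitters' processing notes, the authors made the deposited log2 values with RMA; program, version and build: not given in the sources used here. Names for the 45101 probe sets came from the platform table: 34958 had 1 symbol, 932 had several and 9211 had none, and the last 2 kinds were left out of the tests. All 98 members matched a current symbol by Entrez ID, and 21 had several probe sets. Groups came from the sample labels, and each array was 1 animal.

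All tested genes were fitted in R 4.3.3 by limma 3.58.1 (lmFit, then eBayes, two-sided, Benjamini-Hochberg adjustment over 12499 genes) in 8 comparisons: outcome and treatment, each 10 against 10, and 6 contrasts of a model of the 4 groups. The procedure was tested on simulated data. Correlations with marker means used 100000 permutations, adjusted over 40 relations, and 1e-05 is the smallest p they can give. The permutations ran over all 20 animals regardless of group, so their p also reflects differences between groups. No p was computed for the r within groups. Promoters and coordinates came from RefSeq on GRCm38.p6.

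Members, lists and comparisons were chosen with earlier results of these data known. The rule for named members took Cyp1b1, Gsta4 and Fmo1, members past the threshold, those with the smallest p in each comparison, and the most variable member of each class. Other members, Fmo2, Cyp2d22, Cyp1a1, Cyp2b10, Cyp4b1, Cyp4f39, Cyp2d10 and the other dim examples among them, were chosen after their values were seen. Alternatives covered scaling, filter, probe set, variance model, array weights, a replicate block, marker covariates and leaving out animals.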

Additional observations from a re-analysis of the deposited data

Results flagged for a closer look

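Of 38 groups of 7 animals examined for named members, 1 had an animal far from the others, and chance flags about 1 in 20 such groups. Sult1a1 was at 10.78 in tamoxifen animal 4, which had no later tumor, while the nearest of the other 6 in that group was at 11.29. The gap was 0.707 of the group's range, above the critical value of 0.568.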

How the results depend on the processing

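No member was called for the outcome in the reported fit, beside 29 of all 12499 genes. With the replicate block 4 were, beside 1426 of all genes. When each animal was left out in turn 0 to 1 were. The 1 was Cyp4v3, without placebo animal 3 or tamoxifen animal 1 or 2, beside 84, 118 and 94 of all genes. For treatment the count was 0 to 1 when each animal was left out (1 without placebo animal 6, beside 110 of all genes). Between tamoxifen animals without tumors and placebo animals with tumors, 2 members were called, beside 579 of all 12499 genes. With no filter the count was 4 (Cyp4f39 and Cyp2d10 added), beside 571 of 18194 genes. With the replicate block it was 4, beside 1647 of 12499 genes. It was 0 without placebo animals 7, 8 and 9, beside 141 of all genes. It was 0 with the epithelial mean as a covariate (6 of all genes) and 0 with the T lymphocyte mean as a covariate (202 of all genes). In those fits limma gave 10, 4 and 8 members at an unadjusted p under 0.05. Leaving out each animal gave 1 to 4 (4 without tamoxifen animal 8, beside 846 of all genes). With every probe set tested the count was 2 and with the white adipocyte mean it was 3. The outcome within placebo animals gave 2 with the replicate block, beside 602 of all genes. The T lymphocyte, white adipocyte and every-probe-set settings were chosen after seeing the data. The cause of these changes was not tested.

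The replicate block treats equal numbers within treatments as pairs. No label says that a number marks a shared litter or day. Same-numbered animals correlated from -0.101 to 0.586, with 4 of 10 pairs over 0.1, so the numbers were not taken as pairs. These values are on another scale than the array correlations given earlier, none of which lay below 0.977. That 7 of 20 animals correlated best with their own number is a hint of pairing from the data, not from the design. Between the groups of 7 the block called Cyp1b1 (-1.11, adjusted p = 0.0109), Cyp4v3 (1.09, 0.00196), Fmo5 (0.49, 0.0345) and Gstk1 (0.47, 0.039), and not Cyp4f18 (0.55, 0.069). The same 4 genes were called for the outcome, but this is not a second result. Only numbers 4, 7, 8 and 9 hold animals of different outcome, each a placebo animal with a tumor and a tamoxifen animal without. The block's outcome estimate is therefore the same difference with its sign reversed. It rests on these numbers, which include the placebo animals that stood apart. Their same-number correlations were 0.239 for number 4, 0.0742 for 7, -0.061 for 8 and -0.101 for 9. Within placebo animals the block called Cyp4v3 (-0.83, 0.0392) and Gstt2 (-0.83, 0.0464). No number holds placebo animals of both outcomes, so this contrast compares them only through tamoxifen animals without tumors. It draws again on numbers 4, 7, 8 and 9, so it is not a separate result either.

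Differences that changed sign, between the same groups of 7, belonged to Cyp4f18 (-0.017 with the T lymphocyte mean) and to members that were not called. Fmo1 was 0.0017 with the replicate block. Gstm2 was -0.0082 without placebo animals 7, 8 and 9, -0.018 with the epithelial mean and -0.088 with the white adipocyte mean. Gsto1 was 0.0024 with the mean of all probe sets, 0.046 with the probe set of largest SD, 0.025 with the replicate block and 0.12 with the T lymphocyte mean. Gstp3 was -0.039 with the T lymphocyte mean. Dim probe sets limit what can be said of 57 members, and groups of 3 animals limit the contrasts within treatments.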
